A study of Mus musculus with 2 samples.

Results

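The granule cell layer spots described here were 1059 of the 7066 spots that held at least 2000 UMIs in 2 sections of mouse cerebellum carrying breast tumor. In each section they were the top 15% of these spots by the summed level of Gabra6, Cbln3 and Neurod1 in CPM, a gene's UMIs (unique molecules) scaled to 1000000 UMIs of the spot. Section 1 gave 474 such spots of 3164 and section 2 gave 585 of 3902, out of 3406 and 4017 spots under tissue. They were compared with the other neural spots of the same section, defined by at least 500 CPM of Snap25, a synaptic protein of all neurons. There were 1668 and 1971 of these.

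Both sections carried cerebellar tumors grown from HP organoids and were kept as 1 condition, and each section was treated as 1 mouse. In the paper HP organoids came from mammary tumors of C57BL/6J mice with PIK3CA H1047R and a human HER2 V777L transgene on an actin promoter. These tumors were started by Cre adenovirus in the mammary gland, and the organoids were labelled with luciferase. The titles call the organoids HP-F1 +cre in section 1 and HP-B6 +cre in section 2, and the genotype of both is HP. Whether the organoid lines or recipients differ genetically is not given, so organoid and section cannot be told apart. Neither mouse was treated, and cells were injected into the cerebellum of syngeneic mice of 5 months. The tumor bypassed the circulation and no section without tumor was analysed here, so every comparison below is between places within a section. Formalin-fixed, paraffin-embedded sections of 5 µm were read with the Visium CytAssist probe assay, in which a spot is a small disc of tissue that holds parts of several cells. Barcodes name array positions, and 3096 of them were shared by the sections.

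Granule neurons are the most numerous neurons of the brain. Their small cell bodies are packed into the granular layer, where mossy fibers excite them and Golgi cells inhibit them, and their axons rise into the molecular layer as parallel fibers that contact Purkinje cells. Bodies of Purkinje cells and Bergmann glia line the outer border of the granular layer, and white matter lies on its inner side. Gabra6 encodes a GABA-A receptor subunit that is nearly private to granule neurons in the cerebellum, Cbln3 a secreted partner of the synapse organizer Cbln1, and Neurod1 a transcription factor of their differentiation and survival.

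The 3 genes chose the spots, so their levels are a description. Over the granule spots of section 1, Gabra6 stood at 93.4 CPM, against 6.43 in the other neural spots. In section 2 the same levels were 178 and 13.9. Cbln3 was at 256 against 17.7 in section 1 and at 500 against 36.7 in section 2, and Neurod1 at 426 against 32.4 and at 937 against 83.4. Each gene thus had about the same contrast in both mice, from granule spots whose own levels lay higher in section 2. The least rich spots that were taken had 360 and 759 CPM of the 3 genes together, the richest that were left out 358 and 759, and the medians of the chosen spots were 668 and 1496. The line between chosen and not chosen was therefore a step in a continuous range in both sections.

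Detection of the 3 genes shows how many UMIs the choice rested on. The same genes chose the spots, so it is no check of the label. All 3 genes had a UMI in 85.3% of the granule spots of section 2 and in 42.6% of those of section 1. The median granule spot held 25 UMIs of the 3 genes in section 2 but 6 in section 1, and 144 spots of section 1 and 7 of section 2 were chosen on 3 or fewer. Section 1 spots were shallower, with a median of 8070 UMIs against 16891, while other neural spots had medians of 8008 and 9219. Snap25 was under 500 CPM in 41 and 9 granule spots, and keratins, Epcam and fibrillar collagens of tumor and stroma summed to at least 500 CPM in 115 (24.3%) and 19 (3.25%). Granule spots of section 1 are thus the less certain ones, and results are given for each section.

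On the sections the chosen spots formed bands and not scatter. Among the neighbors of granule spots within 1 step of the array, 65.4% in section 1 and 75.3% in section 2 were granule spots too, where the rule put 15% of all spots in the class. In section 2 the largest connected band held 543 of the 585 spots (92.8%). Section 1 broke into 44 groups, the largest with 235 spots (49.6%), and 26 of its spots touched no other granule spot, against 7 in section 2. In each section 1 granule spot also met the rule for tumor.

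**Figure D1:**
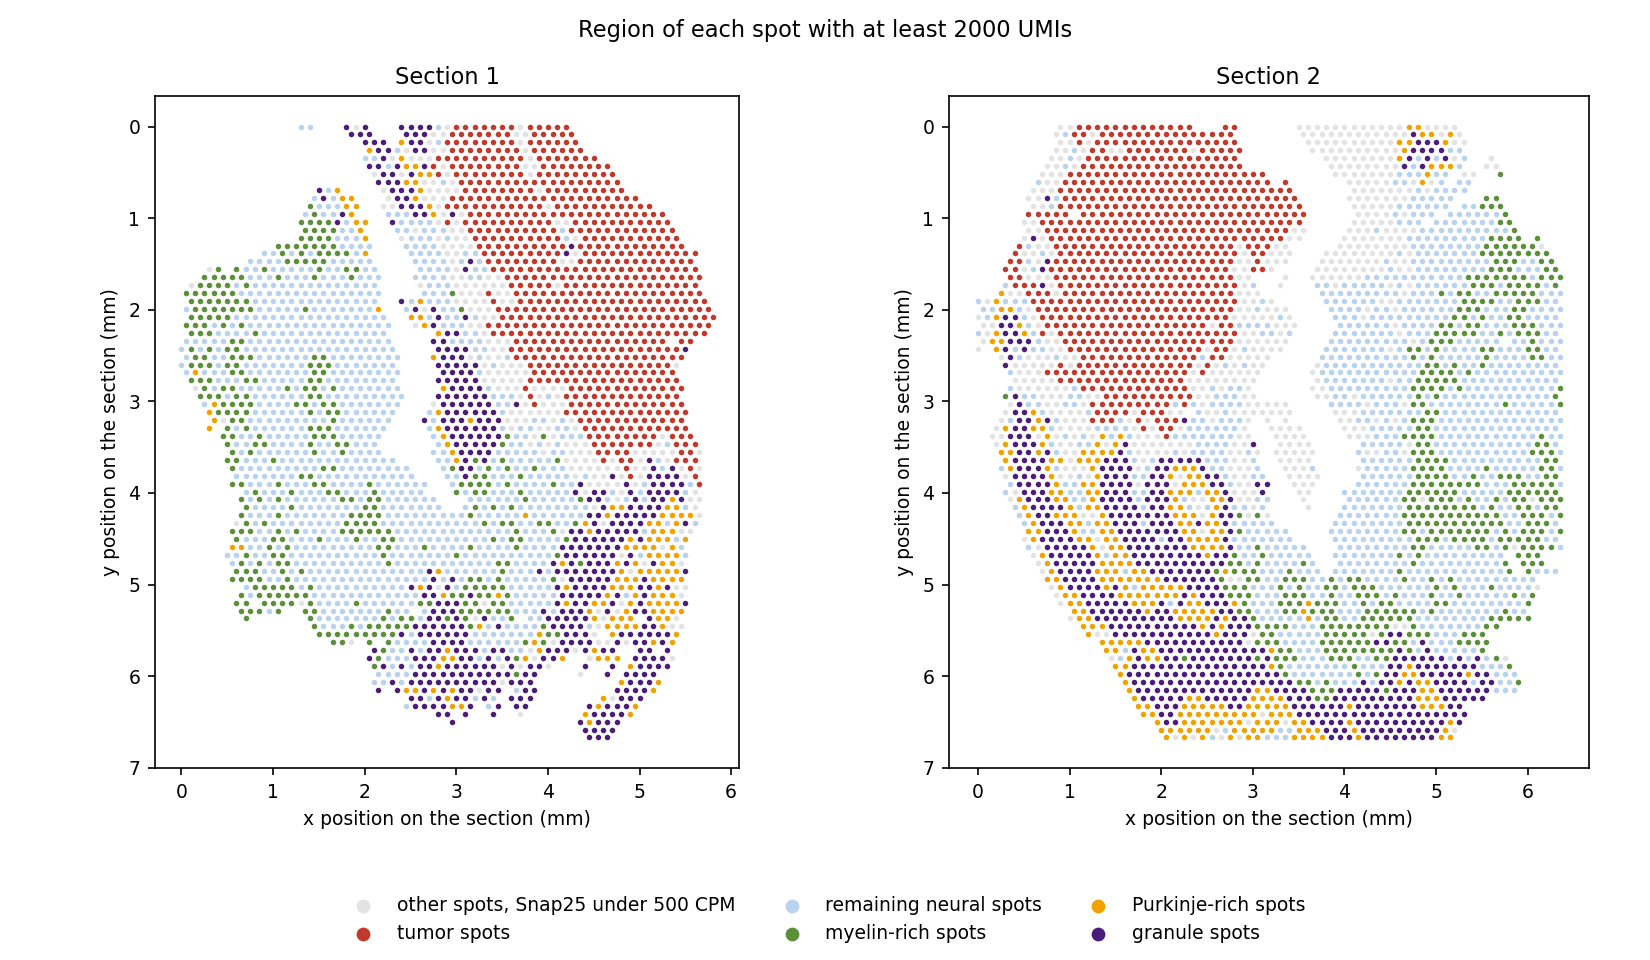
Map of every spot with at least 2000 UMIs in section 1 (left) and section 2 (right), with axes in mm and 1 point per spot colored by region. The 474 and 585 granule spots form bands, and most remaining neural spots lie away from them. Purkinje-rich spots were 11.8% and 14.3% of the neighbors of granule spots within 1 step. All other neural spots, Purkinje-rich ones included, were 26.8% and 22.2%.

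Levels of other genes changed with distance from the bands, over all spots with at least 2000 UMIs, tumor and other non-neural spots included. With rings of 100 µm counted outward from the nearest granule spot, Fat2, an atypical cadherin of granule neurons that the rule did not use, went from 217 CPM in granule spots of section 1 to 72.1 in the first ring and 28.6 in the second. In section 2 it went from 414 to 124 and 62.9. Fat2 therefore dropped within 1 spot of the band in both sections. Spots of the first ring had failed the rule, so a drop in genes that lie with the rule genes was largely set by that choice. Calb1, the calcium buffer of Purkinje cells, was highest in the first ring of section 2, at 1448 against 959 in the granule spots, and fell to 269 in the second ring. In section 1 it was highest in the granule spots themselves, at 667 against 350 in the first ring. Gdf10, a Bergmann glia gene, followed the same pattern, with 162 against 84.3 in section 2 and 101 against 138 in section 1. Both genes thus peaked just outside the granule spots in section 2 and within them in section 1. Of the granule spots, 257 (54.2%) in section 1 and 222 (37.9%) in section 2 were also among the top 15% by Purkinje genes.

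**Figure D2:**
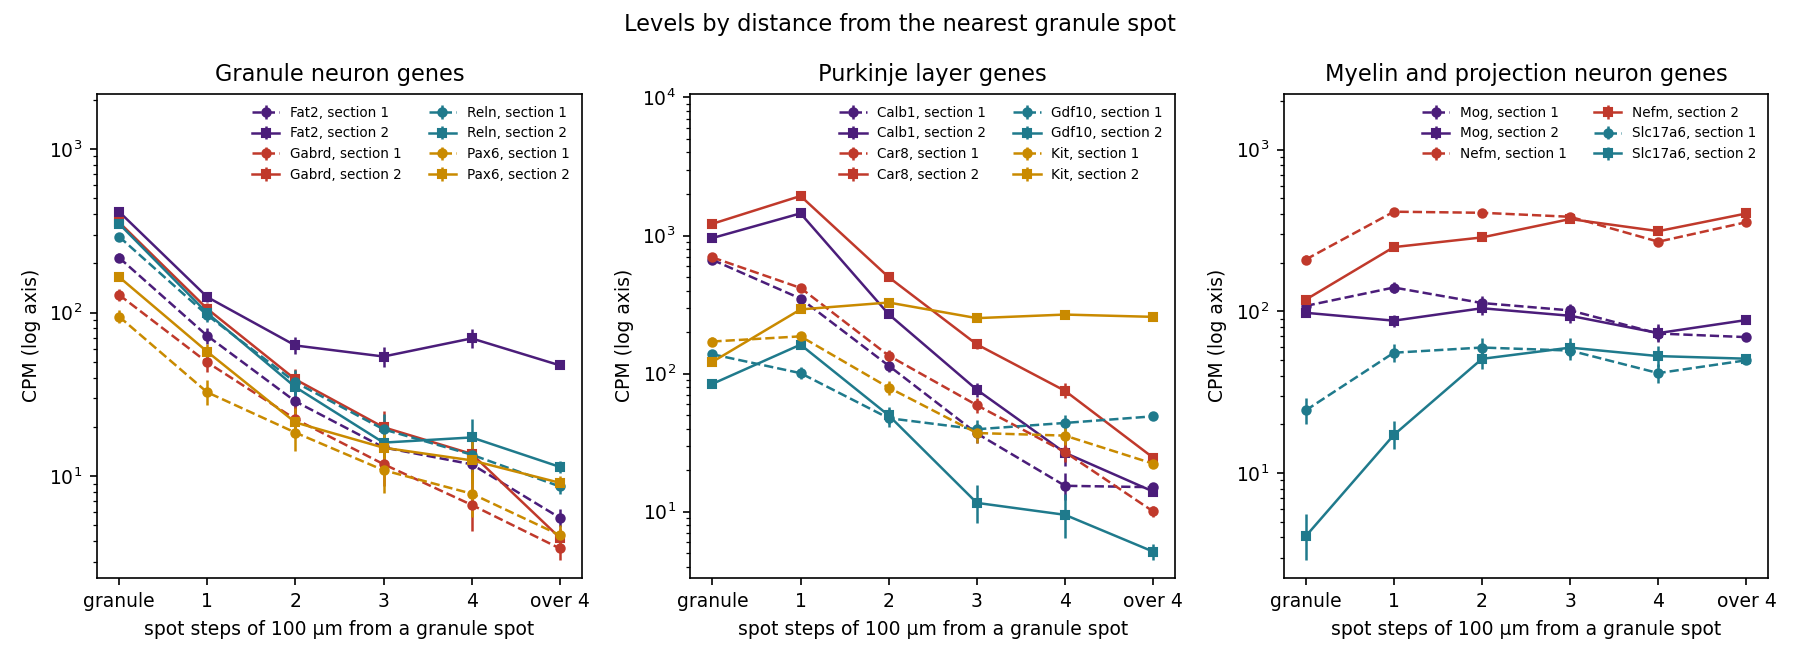
CPM (log axis) of 11 genes in granule spots and in rings of 100 µm around them, with circles and dashed lines for section 1, squares and full lines for section 2, and bars for exact 95% Poisson intervals of the counts. Granule neuron genes drop from the first ring on, Calb1, Car8 and Gdf10 peak in the first ring of section 2 only, and Nefm and Slc17a6 are lower in granule spots than in any ring. Rings include tumor and other non-neural spots.

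Across all genes, granule spots were set against the other neural spots with UMIs summed per section and region and the section as a block. Of 19059 genes tested, 8704 (45.7%) passed an adjusted p of 0.05 in edgeR's quasi-likelihood test, 4919 (25.8%) of them higher and 3785 (19.9%) lower in granule spots. Every share of a gene list is to be read against these. The ratios were fitted after TMM scaling, so they differ somewhat from ratios of the levels. With library size alone the median log2 ratio of all genes was 0.39 in place of 0.06, and the split became 7146 higher and 1613 lower. A gene that lies where the 3 rule genes lie had to differ, so the calls describe the layer and give no independent support to its choice. Because a spot pools cells, more cells of a type and more RNA per cell cannot be told apart in any of these results. Of the 4919 higher calls, 3288 were genes under 4 CPM, and among the 9436 genes at 20 or more, 839 were higher (8.89%) and 3371 lower (35.7%). The fit has 1 residual degree of freedom per gene, and with the non-neural spots added as a further region no gene passed, although 6792 had an unadjusted p below 0.05.

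Genes of granule neuron identity, most of them transcription factors, were higher without exception among those tested. All 13 tested genes of the list passed, with a median log2 ratio of 1.40 beside the 0.06 over all genes. Fat2 led, at 217 and 414 CPM in the granule spots of sections 1 and 2 against 23.8 and 50.2 in the other neural spots, a log2 ratio of 2.78 ± 0.18 (SE; adjusted p = 1.67e-12). Pax6, which directs granule precursors and stays on in the mature cell, was at 94.5 and 165 against 15 and 31.1. Zic1 and Zic2, zinc finger factors of the same lineage, were at 622 and 1065 against 122 and 190, and at 156 and 283 against 27.3 and 55.6. These 3 factors were about equally raised, with log2 ratios of 2.20 ± 0.17, 2.09 ± 0.20 and 2.09 ± 0.17. En2, a homeobox gene of the cerebellar anlage, had a log2 ratio of 1.99 ± 0.19 and Neurod2 1.65 ± 0.17. The neuronal splicing factor Rbfox3 was less even between mice, with log2 ratios of 0.87 in section 1 and 1.85 in section 2. The smallest ratios of the list belonged to Nfia, Nfib and Nfix, nuclear factors that glia also express.

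Of the 11 genes for products that granule neurons release or carry on their parallel fibers, 6 were higher and none lower. Reln, the secreted guidance protein that granule neurons make throughout life, was at 291 and 349 CPM in granule spots against 41.7 and 50. Its log2 ratio was 2.44 in section 1 and 2.48 in section 2, the closest match between mice among the genes of this list that passed. Il16, made in a neuronal form by granule cells, had a log2 ratio of 2.52 ± 0.18, Chn2, a GTPase-activating protein, 2.39 ± 0.20, and Cadps2, which primes dense-core vesicles, 2.26 ± 0.18. The synaptic partners differed more between sections. Cbln1, which bridges parallel fibers to Purkinje cells, had log2 ratios of 1.24 and 2.28, and Slc17a7, the vesicular glutamate transporter of parallel fibers, 1.86 and 1.17. Calb2, the calcium buffer calretinin, went opposite ways, at 194 against 233 in section 1 and 553 against 189 in section 2 (adjusted p = 0.795). The general presynaptic genes Nrxn3, Syt1 and Vamp2 did not pass.

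The receptor list held calls in both directions. Of 11 tested genes, 4 were higher and 2 lower. Gabrd, the subunit that pairs with Gabra6 in extrasynaptic receptors for tonic inhibition, was at 128 and 357 CPM against 16.2 and 39.4, a log2 ratio of 2.76 ± 0.18 (adjusted p = 1.67e-12). Grin2c, the NMDA receptor subunit that granule neurons acquire as they mature, was at 237 and 477 against 79.6 and 77.8, a log2 ratio of 1.77 ± 0.26. Its counterpart of immature granule neurons and of many other neurons, Grin2b, ran the other way, at 40.0 and 20.5 against 62.8 and 57.2, a log2 ratio of -1.40 ± 0.20 (adjusted p = 1.49e-05). Grin2a and Gabrb2 were the other higher genes. With library size alone 7 genes of the list were higher and 1 lower.

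Ion channels were also called in both directions. Of 14 tested, 8 were higher and 2 lower, with a median log2 ratio of 0.51. Kcnd2, an A-type potassium channel of granule cell bodies and dendrites, was at 252 and 664 CPM against 87.3 and 109, a log2 ratio of 1.74 ± 0.27 (adjusted p = 0.00124). The voltage-gated sodium channel Scn2a had a log2 ratio of 1.65 ± 0.21, the G protein-gated potassium channel Kcnj9 1.39 ± 0.17, and the leak channel Kcnk3 1.06 ± 0.17. In all 4 the section 2 ratio was the larger. Kcna1, a potassium channel of axons and terminals, and Fgf12, a sodium channel partner, were the lower genes, at -0.69 ± 0.18 and -0.64 ± 0.19, and both calls were lost with library size only (adjusted p = 0.105 and 0.198).

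**Figure D3:**
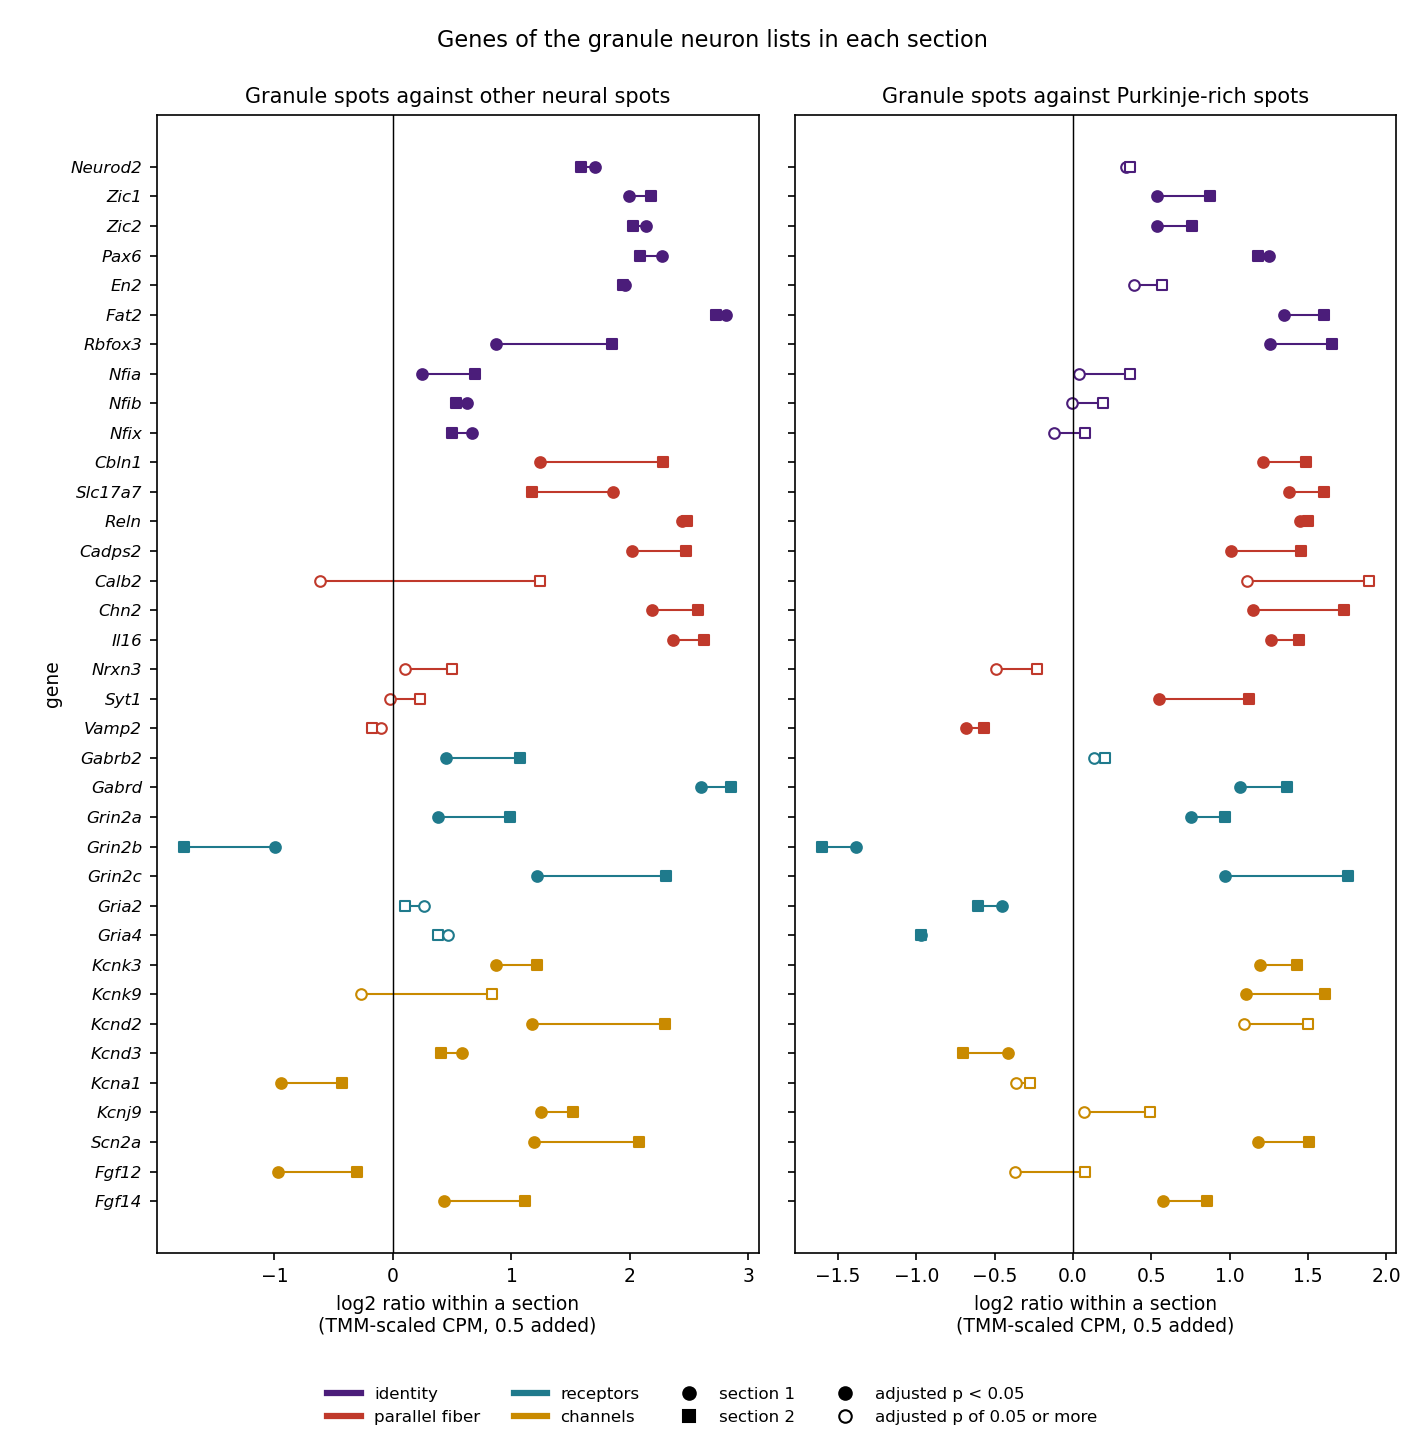
Log2 ratio of the genes of the 4 granule neuron lists that the text names, in section 1 (circles) and section 2 (squares), joined by a line, against other neural spots (left) and Purkinje-rich spots (right); filled symbols passed an adjusted p of 0.05 in the fit. All 10 identity genes shown are filled and right of 0 on the left, and 5 are filled on the right, where Gria4 and Grin2b lie left of 0.

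Outside the lists, genes named by rule were the 10 with the largest ratio in each direction among those called. Crtam, an adhesion molecule best known from T cells, had the largest log2 ratio of the higher genes named by rule, 2.86 ± 0.18 (adjusted p = 8.35e-13), at 121 and 231 CPM against 13.1 and 25.6. It was 2.82 and 2.84 in the 2 sections. The homeobox gene Barhl2 had a log2 ratio of 2.59 ± 0.25 and the phosphatase Dusp5 2.48 ± 0.18. Among the lower genes Lamp5, a membrane protein of forebrain and brainstem neurons, had the largest ratio, at -4.51 ± 0.26, followed by Sncg, a synuclein of projection neurons, at -3.91 ± 0.20. Gabra5, a GABA-A subunit of other brain areas, was at -3.24 ± 0.23.

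The layer was poor in myelin and in long-axon neurons. All 10 oligodendrocyte genes were lower, with a median log2 ratio of -1.44. Mog, a glycoprotein of the outer myelin surface, was at 108 and 97.9 CPM against 266 and 214, a log2 ratio of -1.54 ± 0.17 (adjusted p = 4.99e-08). Of 10 genes of deep nuclear and brainstem neurons, 6 were lower. Nefm, a neurofilament of large axons, was at 209 and 118 against 1348 and 1072, a log2 ratio of -3.27 ± 0.22 (adjusted p = 4.63e-12). Slc17a6, the glutamate transporter of the deep nuclei and brainstem, was at 24.4 and 4.06 against 189 and 135 but did not pass (adjusted p = 0.124). The other neural spots lay a median of 557 µm and 854 µm from a granule spot, so many of them were well away from the layer.

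With the comparison limited to other neural spots within 300 µm of a granule spot, an alternative chosen after seeing the data, 4354 of 18409 genes (23.7%) were called, 1965 (10.7%) higher in granule spots and 2389 (13%) lower. Of the identity genes 9 of 13 stayed higher and of the parallel fiber genes 8 of 11 were higher, and the 10 oligodendrocyte genes were again lower. The Purkinje list had 8 of 12 genes higher and 1, Aldoc, lower against all other neural spots, and none either way within 300 µm, where the Calb1 log2 ratio was 0.19 (adjusted p = 0.747) in place of 1.37 ± 0.32. Most immune and reactive genes were lower in granule spots here, namely 5 of 8 microglial genes, 10 of 12 genes of activated myeloid cells, 9 of 9 interferon genes, 5 of 7 of MHC class I and 7 of 8 of astrogliosis. Against all other neural spots 2 microglial genes were lower, and each of the other 4 lists had at most 1 call. There the summed level of each of these lists was higher in granule spots in section 1 and lower in section 2. For activated myeloid cells it was 6757 against 4904 CPM in section 1 and 4525 against 6862 in section 2. For MHC class I it was 2058 against 1348 and 1089 against 1691.

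The Purkinje layer is the outer neighbor of the granular layer. Granule spots were therefore set against 171 and 325 Purkinje-rich spots, other neural spots in the top 15% by Pcp2, Calb1, Car8 and Ppp1r17, with those 4 genes not tested. Here 395 of 17982 genes (2.2%) were higher and 1522 (8.46%) lower, 10.7% in all, and with library size alone 943 and 610. Most identity factors did not pass. Of 13 genes 5 were higher, namely Fat2, Rbfox3, Pax6, Zic1 and Zic2, with log2 ratios from 0.66 ± 0.14 for Zic2 to 1.5 ± 0.14 for Fat2. Of the 11 parallel fiber genes 7 were higher and 1 lower. Slc17a7 was at 449 and 714 CPM in granule spots against 149 and 196, a log2 ratio of 1.52 ± 0.24 (adjusted p = 0.00527). Reln and Chn2 had log2 ratios of 1.47 ± 0.14 and 1.46 ± 0.17. Vamp2, a vesicle protein of all synapses, was the lower one, at -0.63 ± 0.13.

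Receptor subunits were called in both directions at this border. Of 11 genes 3 were higher in granule spots, Gabrd (1.23 ± 0.19), Grin2c (1.42 ± 0.29) and Grin2a, and 5 lower, among them Grin2b, Gria2 and Gria4 (-0.97 ± 0.15). Gria4, an AMPA subunit that Bergmann glia express as well as neurons, was at 351 and 422 CPM against 596 and 689. Among channels Kcnk3, Kcnk9, Scn2a and Fgf14 were higher, with Kcnk3 at 1.34 ± 0.17 and Scn2a at 1.35 ± 0.25, and Kcnd3 lower.

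The Purkinje side also carried the inhibitory neurons and glia. In granule spots 7 of 8 further Purkinje genes, 7 of 8 genes of molecular layer interneurons and 8 of 9 of Bergmann glia and astrocytes were lower. Purkinje genes chose the comparison spots, so genes that lie with them had to be higher there, and these counts are a description. Granule spots that were also rich in Purkinje genes stayed in the granule class. Homer3, a postsynaptic scaffold of Purkinje spines, was at 144 and 100 CPM against 403 and 361, a log2 ratio of -1.92 ± 0.16 (adjusted p = 0.000198). Kit, a receptor of molecular layer interneurons, was at -1.92 ± 0.26, Gad1, which makes GABA, at -1.69 ± 0.15, and S100b of Bergmann glia and astrocytes at -1.73 ± 0.18. S100b was also lower in granule than in myelin-rich spots, at -1.51 ± 0.18, so it was not particular to the Purkinje side. On the white matter side, 2 of 10 oligodendrocyte genes, Mog and Mag, were higher in granule than in Purkinje-rich spots, at 0.79 ± 0.20 and 0.69 ± 0.20. Without the section as a block 553 genes were called in this contrast, and of the identity genes none, of the interneuron genes 7 of 8.

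Against 399 and 494 myelin-rich spots, 2683 of 17979 genes (14.9%) were higher and 3658 (20.3%) lower, 35.3% in all. With library size alone these were 5642 and 2004. Here 12 of 13 identity genes were higher, with a median log2 ratio of 2.33. The median of the identity list against Purkinje-rich spots was 0.60, and the difference between the contrasts was not tested. All 7 oligodendrocyte genes that had not chosen the myelin-rich spots were lower, which the choice of those spots by other myelin genes largely fixed. Against the 1098 and 1152 remaining neural spots 4821 genes (26.8%) were higher and 4043 (22.5%) lower, 49.3% in all, and 7180 and 2060 with library size alone.

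The other neurons of the granular layer could be seen at low levels. Eomes, the transcription factor of unipolar brush cells, was at 27.7 and 23.0 CPM in granule spots against 5.38 and 3.33 in other neural spots, a log2 ratio of 2.24 ± 0.32 (adjusted p = 2.4e-06). It was also higher than in Purkinje-rich spots, at 1.77 ± 0.36, and behind Slit3, a guidance ligand at 1.78 ± 0.26, had the largest ratio there of the genes named by rule. Of the 11 genes listed for unipolar brush and Golgi cells, 4 were higher than in other neural spots and 4 lower, and against Purkinje-rich spots 2 were higher and 2 lower. Grm2, a metabotropic glutamate receptor of both cell types, was higher than in Purkinje-rich spots, at 1.34 ± 0.38 (adjusted p = 0.0427), and at 0.67 ± 0.32 against other neural spots (adjusted p = 0.0885). Lgi2 and Slc6a5, the glycine transporter that brainstem neurons share, were lower than in other neural spots, at -1.45 ± 0.21 and -2.53 ± 0.24, and neither passed within 300 µm (adjusted p = 0.0527 and 0.229).

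Granule spots of the 2 mice differed in level for most of these genes, without a test since each section is 1 library per region. Gabrd was at 128 (95% Poisson interval 118 to 139) in section 1 and 357 (345 to 369) in section 2, and Fat2 at 217 (204 to 230) and 414 (401 to 427). The intervals cover counting error only, and section, mouse and named organoid cannot be told apart. Fat2 was also higher in the other neural spots of section 2, at 50.2 against 23.8, and higher levels go with the higher threshold of that section. Col1a1 ran the other way, at 845 in granule spots of section 1 and 19.8 in section 2.

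Distance to the tumor was not used to choose the spots. Tumor spots were taken as the largest connected set with Snap25 under 200 and summed Epcam, keratins, Col1a1 and Col3a1 of at least 3000 CPM. This gave 765 and 751 spots. In section 2 a second connected set of 90 such spots was left out of the distances. With all connected sets of at least 20 spots 1774 genes were called near against far. The granule spots of each section were split into near, middle and far groups of 158 in section 1 and 195 in section 2. The near groups lay a median of 479 µm and 889 µm from tumor and the far groups 2678 µm and 3659 µm. Near spots were also deeper, with medians of 15420 and 19049 UMIs against 6529 and 12168 in the far groups. Of the near spots 45.6% and 7.69% carried tumor and stroma markers at 500 CPM or more, against 12.7% and 0% of the far spots. The part of depth and of admixed tumor in the results below was not tested beyond the values without such spots. Those values are given for some lists and genes, and not for the astrogliosis, microglial and activated myeloid lists.

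Near the tumor 1303 of 17272 genes (7.54%) were higher than far from it and 555 (3.21%) lower, 10.8% in all. With library size alone, which moved the median log2 ratio from -0.03 to -0.22, they were 1045 and 1077. Without spots that carried tumor and stroma markers the numbers were 784 and 282, and 994 genes were called both times in the same direction. Without the section as a block 397 genes were called, 390 of them higher.

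Granule neuron genes showed few calls. Of the 49 tested genes of the 4 granule lists none was higher near the tumor and 2 were lower, with medians of 0.14, -0.06, -0.03 and 0.02 on the log2 scale for identity, parallel fiber, receptor and channel genes, beside -0.03 over all genes. Fat2 was at 215, 239 and 197 CPM in the near, middle and far groups of section 1 and at 396, 411 and 446 in section 2, a near to far log2 ratio of 0.14 ± 0.23. Zic1 had a log2 ratio of -0.02 ± 0.24, Cbln1 0.11 ± 0.24 and Slc17a7 -0.03 ± 0.23, and since these SEs leave room for moderate differences either way, equality is not shown. With library size alone 1, 2, 4 and 2 genes of the 4 lists were lower. The rule fixes a floor of granule transcripts in every chosen spot, which limits how far their levels could fall. Gabrd came closest to a higher call, at 153, 115 and 81.5 in section 1 and 353, 372 and 341 in section 2 (log2 ratio 0.61 ± 0.23, adjusted p = 0.0675). Grin2b was lower, at 21.7, 47.0 and 77.8 in section 1 and 14.1, 21.0 and 30.0 in section 2 (-1.28 ± 0.24, adjusted p = 5.05e-06). Kcnd3 was called lower on section 2 alone, at 102 against 310 there and 196 against 209 in section 1.

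**Figure D4:**
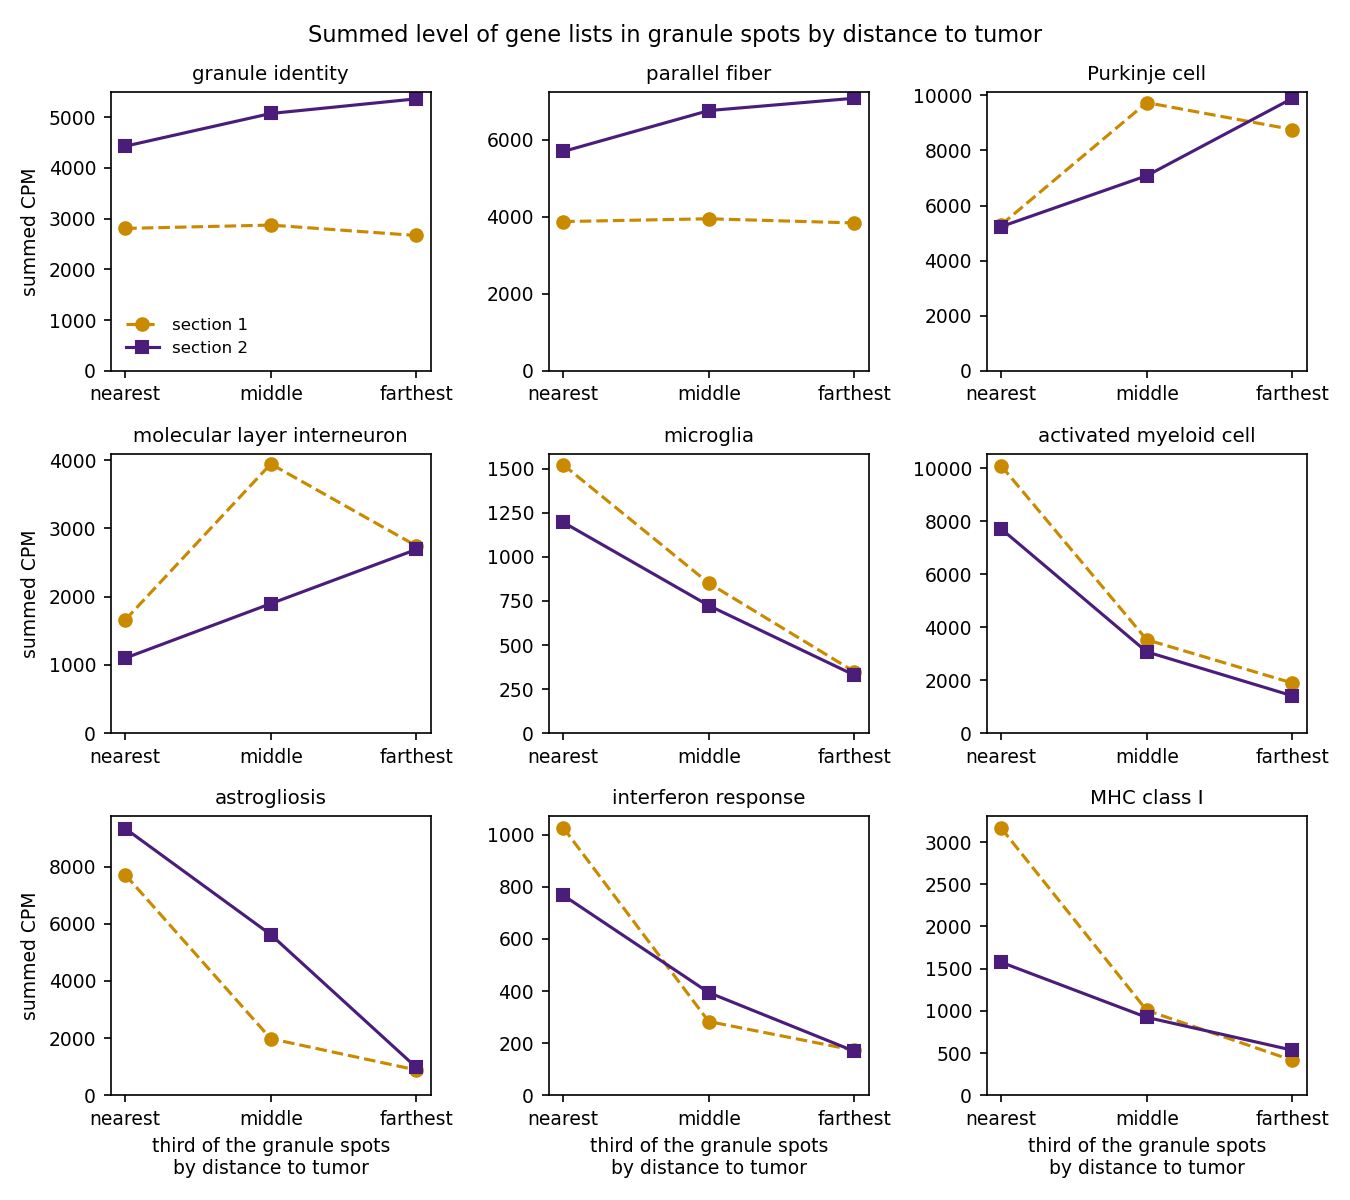
Summed CPM of 9 gene lists in the near, middle and far groups of granule spots, with circles and dashed lines for section 1 and squares and full lines for section 2. Microglial, myeloid, astrogliosis, interferon and MHC class I lists drop from near to far in both sections. The granule identity list lies between 2669 and 2874 in section 1 and goes from 4429 near to 5363 far in section 2. Its sum includes the rule gene Neurod1 and that of the parallel fiber list Cbln3, so the rule limits how far both sums could fall.

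Transcripts of the other cortical neurons were scarcer in granule spots near the tumor. Of 12 Purkinje genes 7 were lower and none higher, with a median log2 ratio of -0.71. Homer3 was at 68.5, 253 and 219 CPM from near to far in section 1 and at 56.1, 125 and 136 in section 2 (-1.28 ± 0.22, adjusted p = 1.53e-07). Gng13, a G protein subunit of Purkinje cells, was at -1.12 ± 0.24 and Ppp1r17, a phosphatase inhibitor of Purkinje cells, at -0.94 ± 0.22. In both sections the near group was the lowest of the 3 for these genes. Of 8 interneuron genes 4 were lower, among them Gad2 (-0.94 ± 0.22). Of 11 genes of unipolar brush and Golgi cells 7 were lower, among them Slc6a5 (-1.22 ± 0.23) and Lmx1a (-2.52 ± 0.57), a factor of unipolar brush cells. Lmx1a rests on low levels, with 12.3 TMM-scaled CPM over all granule spots of section 1 and 1.39 in section 2. The counts of lower genes in the Purkinje, interneuron and unipolar brush and Golgi lists varied with the setting. Without spots carrying tumor and stroma markers they were 2 of 12, 3 of 8 and 2 of 11, between the nearer and farther groups of an equal split 2, 1 and 0, and without the block 0 in each list.

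Reactive astrocyte genes were much higher near the tumor. Of 8 astrogliosis genes 7 were higher near the tumor and none lower, with a median log2 ratio of 3.09. Lcn2, a secreted lipocalin of reactive astrocytes, was at 826, 26.6 and 13 CPM from near to far in section 1 and at 1092, 161 and 15 in section 2 (6.44 ± 0.32, adjusted p = 6.1e-63). Serpina3n, a protease inhibitor of the same state, was at 881, 133 and 32.4 and at 866, 399 and 36.9 (4.91 ± 0.28). Gfap, the astrocyte intermediate filament, was at 3620, 1142 and 504 and at 5459, 3791 and 603 (3.20 ± 0.28). Levels dropped from near to middle to far in both mice, sooner in section 1. Timp1, at 3.70 ± 0.87, did not pass (adjusted p = 0.116). Ccn5, a matricellular protein, had the largest ratio named by rule, but only 2 and 1 UMIs in the far groups, against levels of 93.5 and 149 in the near groups. Aqp4, the water channel of astrocyte endfeet, and Fabp7 were higher by less, at 0.77 ± 0.22 and 1.27 ± 0.23, and Fgfr3, a receptor of resting astrocytes, was lower at -1.53 ± 0.21.

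Myeloid genes were raised as a group. Of 8 microglial genes 7 were higher, with a median log2 ratio of 1.82, and of 12 genes of activated myeloid cells 11, with a median of 3.11. Cx3cr1, the fractalkine receptor of microglia, was at 174, 88.8 and 29.6 CPM from near to far in section 1 and at 135, 76.8 and 34.5 in section 2 (2.38 ± 0.23, adjusted p = 5.53e-23), and the resting marker P2ry12 was at 1.52 ± 0.23. C1qa, a complement subunit, was at 1303, 525 and 112 and at 587, 284 and 75 (3.43 ± 0.26). Spp1, secreted by phagocytic cells, was at 1234, 162 and 93.5 and at 1338, 238 and 38.5 (4.58 ± 0.28), and Hmox1, which degrades heme, at 497, 42.6 and 5.55 and at 81.2, 24.4 and 5.68 (5.31 ± 0.33). Arg1, an arginase of alternatively activated macrophages, was at 128, 7.99 and 18.5 and at 52.0, 17.3 and 11.4 (2.71 ± 0.25), but without spots carrying tumor and stroma markers it was at 1.01 (adjusted p = 0.0766).

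Interferon response and antigen presentation genes were higher throughout their lists. All 9 interferon genes passed, with a median log2 ratio of 2.84, and all 7 MHC class I pathway genes, with a median of 2.57. Bst2, an interferon-induced membrane protein, was at 191, 46.2 and 11.1 CPM from near to far in section 1 and at 110, 63.5 and 28.8 in section 2 (2.90 ± 0.25, adjusted p = 2.77e-22). B2m, the light chain of class I molecules, was at 2054, 629 and 214 and at 878, 524 and 249 (2.73 ± 0.26). Of the class I heavy chains H2-K1 was at 3.01 ± 0.25 and H2-D1 at 1.71 ± 0.23, and Psmb8, an immunoproteasome subunit, at 2.79 ± 0.24. Near relatives among the H2 genes could share probe counts. The T cell chemokine Ccl5 was among the 10 largest ratios named by rule, at 98.4, 9.76 and 4.63 and at 70.2, 22.8 and 2.43 (4.86 ± 0.33). All 9 and all 7 genes also passed without spots carrying tumor and stroma markers.

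**Figure D5:**
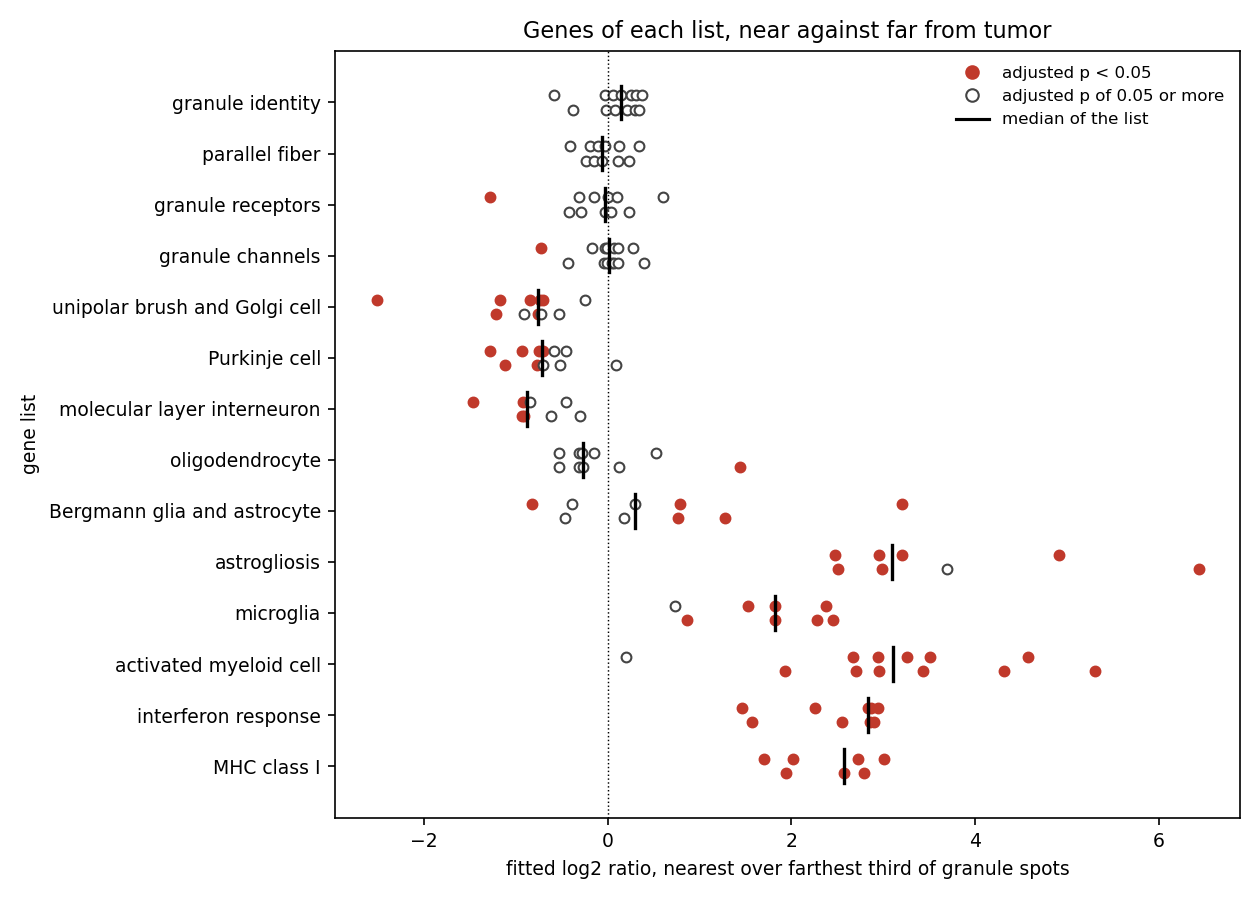
Fitted log2 ratio of near over far granule spots for the tested genes of 14 lists, 1 point per gene, with filled points at an adjusted p below 0.05 and a bar at each list's median. Points of the 4 granule lists gather around 0 with 2 filled, lists of other cortical neurons lie mostly left of it, and astrogliosis, myeloid, interferon and MHC class I lists lie right of it.

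Stress and injury genes were mixed. Of 8 genes of neuronal injury 3 were higher: Atf3 (1.62 ± 0.34), Jun (1.22 ± 0.22) and Gap43 (1.18 ± 0.23). Gap43 was at 345, 218 and 139 CPM in section 1 and 661, 520 and 399 in section 2. It was also higher in granule than in Purkinje-rich spots, at 0.81 ± 0.15, and axon regrowth was not tested. Of 8 activity genes Junb was higher, at 1.84 ± 0.22, and Nr4a1 lower, at -1.05 ± 0.22, while Fos, Egr1 and Arc did not pass. Of 8 p53 and integrated stress genes Bbc3 and Ccng1 were higher, at 1.18 ± 0.37 and 0.64 ± 0.21, and neither stayed past the threshold without spots carrying tumor and stroma markers (adjusted p = 0.0556 and 0.258). Of 8 genes of proliferating granule progenitors 2 were higher and 2 lower. The higher ones were genes of dividing cells, Top2a (1.72 ± 0.44) and Mki67, and the lower ones Gli1, a target of hedgehog signaling (-1.30 ± 0.34), and Dcx of young neurons (-1.32 ± 0.36). Mki67 was at 39.3, 14.2 and 12 and at 16.7, 12.3 and 4.46 (2.00 ± 0.35), while the granule precursor factor Atoh1 was at 6.73, 8.88 and 22.2 and at 5.64, 7.1 and 7.71 and did not pass.

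Of the genes named by rule as lower near the tumor, Ptgds, Dao and Sparcl1 had the largest ratios. Ptgds, a prostaglandin synthase of meninges and oligodendrocytes, was at 99.2, 198 and 360 CPM from near to far in section 1 and at 46.9, 121 and 235 in section 2 (-1.89 ± 0.22, adjusted p = 1.33e-15). Dao, a D-amino acid oxidase of cerebellar astrocytes, was at -1.74 ± 0.21, and Sparcl1, an astrocyte synaptogenic protein, at -1.54 ± 0.24. In each the 3 groups stood in the same order in both mice. Of 10 oligodendrocyte genes none passed as lower and 1, Cldn11, which seals myelin, was higher at 1.44 ± 0.23. The median log2 ratio of that list was -0.27, with 5 genes lower in both sections and 3 higher in both, and its summed level was 6166 CPM near against 9262 far in section 1 and 4952 against 6650 in section 2.

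Markers of tumor, stroma and vessels moved with the near group. Of 10 tumor and stroma genes 5 were higher and none lower, and their summed level was 2217, 317 and 303 CPM from near to far in section 1 and 271, 156 and 88.4 in section 2. Epcam, Krt7, Krt8, Krt19, Col1a1 and Col3a1 of this list also chose the tumor spots from which distance was measured. Higher levels of these genes near tumor were therefore partly set by that choice, and their calls are a description. Col1a1 was at 1422, 167 and 123 and at 32.3, 13.6 and 8.11 (3.26 ± 0.28), so its level was far higher in section 1. Epcam, of tumor epithelium, was at 6.73, 0.888 and 12 in section 1, where the far group was the highest, and at 43.6, 23.8 and 10.9 in section 2. None of the list's genes was at 0 in a near, middle or far group. Of 6 endothelial genes 4 were higher, among them Cldn5 of the blood-brain barrier at 1.30 ± 0.21.

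The study turned to ErbB receptors, which granule cells express in early life, and to IL34, a ligand of the myeloid receptor Csf1r. In granule spots Erbb2 was at 10.7 and 6.87 CPM and Erbb4, a neuregulin receptor of neurons, at 23.2 and 34.1. Erbb4 was lower than in other neural spots, at -0.74 ± 0.20 (adjusted p = 0.00581), but not with library size alone (adjusted p = 0.127) or within 300 µm (-0.04, adjusted p = 0.915). Its ligand gene Nrg1 was at 33.4 and 21.4 against 112 and 93.1 (-2.27 ± 0.18, adjusted p = 6.08e-11). Il34 was at 17.6 and 10.3 against 28.6 and 27.3, a log2 ratio of -1.39 ± 0.24 (adjusted p = 5.68e-05). Over all spots more than 4 steps from the layer, which include tumor and other non-neural spots, Il34 was at 59.0 and 52.5. By distance to the tumor, Csf1r was higher near it, at 206, 124 and 45.4 and at 227, 130 and 54.4 (2.28 ± 0.23), and Nrg1 lower, at -0.79 ± 0.25 (adjusted p = 0.0174). Il34 (0.52 ± 0.38) and Erbb4 (-0.34 ± 0.24) did not pass, with adjusted p of 0.415 and 0.404.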

How the data were processed

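UMI counts per probe-targeted gene and spot were deposited by the authors as raw matrices with spot positions for 2 sections, made per the submitters' processing notes with Space Ranger 2.1.1 and the mm10 build. Their 19465 genes held 63986887 and 71878333 UMIs under tissue. Spots with at least 2000 UMIs were kept, and those under Snap25 of 500 CPM outside the granule class were not called neural. Where a symbol had several entries, that with most UMIs kept the plain symbol, and the others stayed in the totals and the fits as separate entries.

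Because spots are not replicates, the UMIs of each region were added up within a section and these sums were tested with edgeR 4.0.16 (R 4.3.3; TMM factors, filterByExpr, robust quasi-likelihood fit, section as a block) with Benjamini-Hochberg adjustment over all genes tested. Gabra6, Cbln3 and Neurod1 were not tested in any comparison. The Purkinje and myelin genes that chose spots were not tested in contrasts with the regions they set. Snap25 and the genes that chose the tumor spots stayed among the genes tested. The 2 sections carry the replicate numbers 1 and 2, and both regions of a section are the same mouse, which gives the pairing. Nothing else replicates a section. The block takes out level differences between sections, so the spread behind a p-value starts from how far region differences disagreed between these 2 sections. In every fit that spread was also shared across genes. Against other neural spots the fit had 1 residual degree of freedom per gene beside a median prior of 30.6. The fit with 4 regions had 3 beside 9.52. Near against far the fit had 2 residual degrees of freedom and an infinite median prior, so the typical gene took its spread from all genes together. Small p-values in these fits therefore do not measure each gene's own spread between mice. Libraries held 1080273 to 20697626 UMIs. The scripts were tested on simulated data. Poisson intervals are exact at 95% and cover counting error only. Section log2 ratios use TMM-scaled CPM with 0.5 added.

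Genes named were members of the gene lists and, per comparison, the 10 largest ratios in each direction among called genes of at least 20 CPM and like direction in both sections. The members, the lists and the tests were chosen with earlier results of these data known. Etv1, Glul, Hba-a1, Isg15 and Ly6c1 were not measured by a probe. DESeq2 1.42.0, other normalizations, filters, spot thresholds, tumor definitions and splits by distance were tried as alternatives. Some genes of the lists count in the list totals and are not reported by name here.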

Additional observations from a re-analysis of the deposited data

How the results depend on the processing

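Against other neural spots, where 8704 genes were called, DESeq2 called 3680, spots thinned to 2000 UMIs 2637, comparison spots within 300 µm 4354, and the fit with non-neural spots as a further region 0. Against remaining neural spots DESeq2 called 5553 in place of 8864. Near against far from tumor, with 1858 calls, DESeq2 called 737, the top 10% of spots 1204, an equal split by distance 1090, and granule spots without tumor or stroma markers 1066. Without the replicate block, which drops the pairing of regions by section, the calls were 2345 against other neural, 553 against Purkinje-rich, 3345 against myelin-rich and 3967 against remaining neural spots, and 397 near against far. The causes were not tested. The restriction to 300 µm, to granule spots with Snap25 of 500 CPM or with more than 3 UMIs of the rule genes, and all connected tumor sets were chosen after seeing the data.

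Leaving out 1 section leaves no residual degree of freedom, so each section's own log2 ratio stands in. For near against far it ranged from -1.52 to 0.22 for Kcnd3 and from -0.50 to 2.02 for Epcam. Some uncalled near to far ratios close to 0 changed sign. Fat2 was -0.048 with library size only and -0.021 for spots with more than 3 UMIs of the rule genes, and Cbln1 -0.089 and -0.031. Zic1 was 0.019 without a filter on low counts, 0.16 in the top 10% of spots, 0.21 without spots carrying tumor or stroma markers and 0.034 in the equal split, and Slc17a7 was 0.013, 0.17, 0.30 and 0.073. Over 126 gene results, 1582 alternative values counted as the same, 158 lost the call, 20 gained one, 23 moved by more than the spread and 14 changed sign. Of the 1582, 117 and 110 are single-section ratios, without replicate 1 and without replicate 2. They have no test and count as the same where they differ from the fit by no more than the spread of the sections' ratios. With so few sections that was largely set in advance, and sign changes there were counted only for called genes. The rest of the 1582 kept direction and call. Depth limits genes of a few CPM in the shallower far groups.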
